A study of Mus musculus with 4 samples.

Results

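Metallothioneins are small cysteine-rich proteins that bind zinc and copper, and Mt1 and Mt2 are the forms most tissues make. Their genes are switched on by free zinc through the zinc-sensing factor MTF1, which binds metal response elements in their promoters, and also by glucocorticoids, oxidants and inflammation. Zinc itself enters the cytosol through the importers of the Slc39a (ZIP) family and leaves it through the exporters of the Slc30a (ZnT) family, and the small intestine is where dietary zinc is taken up.

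The 8 genes described here were Mt1, Mt2, the importers Slc39a4, Slc39a5, Slc39a9 and Slc39a14, and the exporters Slc30a1 and Slc30a10, taken by symbol from the 32286 features counted. Mt1 and Mt2 were selected on their measured difference between genotypes, which ran in opposite directions in enterocytes and stromal cells, so that difference is given below as a description with no test. The wider zinc list held 29 genes, namely the metallothioneins, MTF1 and both transporter families.

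Single cells came from the distal jejunum of 4 adult mice, each 1 library, 18.5 h after small intestinal ischemia and reperfusion (I/R), and no uninjured mouse was measured. The 2 Control mice were Foxc1fl/fl;Foxc2fl/fl, and the 2 EC-Foxc-DKO mice carried Cdh5-CreERT2 on the same 2 floxed genes, a Cre recombinase active in blood and lymphatic endothelial cells after tamoxifen. The Control mice carried no Cre, so the deletion and the presence of Cre cannot be told apart. With 2 mice per genotype, p-values measure the spread among 4 animals only.

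Of 22679 barcodes, 5615 (24.8%) held at most 10% mitochondrial UMIs (unique molecular identifiers, 1 per captured mRNA) and were kept, 348 to 2742 per mouse. Median UMIs per kept cell ran from 4254.5 to 19871, and 51 barcodes occurred in 2 libraries. Control replicate 2 and EC-Foxc-DKO replicate 2 gave almost no middle or top enterocytes (21 and 8 middle cells, 3 and 2 top cells), so comparisons with top enterocytes rest on the replicate 1 mice alone, and middle enterocytes are given for 3 mice. Foxc1 had 1 and 5 UMIs in the blood endothelial cells (BECs) of the Control mice and 1 and 0 in those of the EC-Foxc-DKO mice, and Foxc2 had none, too few to check the deletion, while Cre had 0 UMIs in the BECs of both Control mice and 3 and 2 in those of the EC-Foxc-DKO mice.

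Mt1 and Mt2 lie side by side on chromosome 8 (GRCm38, + strand, 3 exons each). Mt2 spans bases 94172664 to 94173568 and Mt1 bases 94179082 to 94180327, with 5513 bases between them. The importers lie at 14:70303469-70351425 (Slc39a14, 10 exons), 15:76612383-76617384 (Slc39a4, 12 exons), 10:128395931-128401229 (Slc39a5, 12 exons) and 12:80643883-80683342 (Slc39a9, 7 exons), the last on the + strand and the others on the − strand. Slc30a1 (1:191906767-191913247, 2 exons) and Slc30a10 (1:185454848-185468762, 4 exons) both lie on the + strand of chromosome 1.

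The 250 bases before the RefSeq start of both metallothionein genes are shown because metal response elements are known from their promoters. Capitals mark the 7-base core of a metal response element, searched on both strands as TGCACNC or TGCGCNC, where N is any base. The windows are chr8:94178839-94179088 for Mt1 and chr8:94172368-94172617 for Mt2 (GRCm38.p6, + strand).
Mt1: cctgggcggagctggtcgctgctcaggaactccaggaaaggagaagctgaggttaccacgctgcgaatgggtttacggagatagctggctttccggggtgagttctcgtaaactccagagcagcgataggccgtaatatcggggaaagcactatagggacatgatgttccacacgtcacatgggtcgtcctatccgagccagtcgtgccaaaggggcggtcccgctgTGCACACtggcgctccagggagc
Mt2: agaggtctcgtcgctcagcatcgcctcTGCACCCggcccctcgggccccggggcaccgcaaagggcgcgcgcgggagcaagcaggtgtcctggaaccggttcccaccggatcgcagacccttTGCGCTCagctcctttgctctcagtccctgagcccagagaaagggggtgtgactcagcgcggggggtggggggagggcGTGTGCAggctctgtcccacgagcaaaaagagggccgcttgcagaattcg

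The Mt1 window held 1 core and the Mt2 window 3. Of 32851 mouse promoter windows of the same length, 21.4% held at least 1 core and 1.3% at least 3. Of the 8 genes, 6 were matched in the promoter table, and the windows of Slc30a10 and Slc30a1 held 3 cores, of which 2 overlap, and 1 core, the 2 windows of Slc39a5 held 1 and 0, and that of Slc39a9 held 0.

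Further cores lay inside the first 150 bases of the annotated transcripts, and the stretches that hold them are shown with the cores in capitals and their first and last base counted from the annotated start.
Mt1 bases 10 to 34: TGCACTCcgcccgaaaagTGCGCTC
Mt1 bases 92 to 112: GGGTGCAaacccttTGCGCCC
Mt2 bases 13 to 38: GTGTGCAggcggcgggggcGCGTGCA
Mt2 bases 66 to 72: TGCGCTC
Slc30a1 bases 45 to 51: GAGCGCA

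The Mt1 and Mt2 stretches lie in the 5′ UTR within exon 1 of the longest transcript in GENCODE vM21. GENCODE also lists shorter transcripts of both genes that start downstream of these stretches, which then lie before the start. Which start these cells used was not tested. The end of the Mt1 window above runs into exon 1 of the longest transcript. With 4 cores the Mt1 transcript was among 0.0518% of 21227 transcripts, and with 3 cores the Mt2 transcript was among 0.471%. The first 150 bases of Slc30a1 held 1 core, as did those of 16.5% of transcripts, and none was found in the same bases of the other 5 genes. Such a match is a description of the letters and not a measured binding site.

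Levels are given as CPM, a count of UMIs scaled to 1000000 UMIs summed over a cell type in 1 mouse, for mice with at least 10 cells of that type. Cell types were named from marker genes on clusters that were made without the 29 zinc genes. Along the crypt to villus axis the cells were taken in the order crypt cells, bottom enterocytes, the middle enterocyte cluster led by Cubn, the one led by Ubd, and top enterocytes. That order followed their markers, since the summed level of 9 top-enterocyte markers was 36503 to 43676 CPM in the Cubn cluster, 90809 and 101750 CPM in the Ubd cluster, and 178490 and 183470 CPM in top enterocytes.

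Mt1 and Mt2 were high in the crypt and at the villus bottom and fell to near background at the top. Crypt cells held 587 and 984 CPM of Mt1 in the Control mice and 949 and 656 CPM in the EC-Foxc-DKO mice. In top enterocytes Mt1 was at 26.7 CPM in the Control and at 11.2 CPM in the EC-Foxc-DKO replicate 1 mouse, the 2 mice with enough such cells. The middle clusters lay between them in both mice, with 239 and 182 CPM in the Cubn cluster and 81.1 and 63.6 CPM in the Ubd cluster. Within these mice the level in bottom enterocytes exceeded that in top enterocytes 41.9-fold and 47.2-fold.

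Mt2 followed the same course at a lower level. It stood at 67.4, 189, 148 and 119 CPM in the crypt cells of Control replicates 1 and 2 and EC-Foxc-DKO replicates 1 and 2. In bottom enterocytes the values in the same order were 112, 88.5, 35.4 and 29.4 CPM. Top enterocytes of the 2 replicate 1 mice held 1.57 and 0.657 CPM, which is 6 UMIs in all, and the level at the bottom was 71.7-fold and 53.9-fold that at the top.

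**Figure D1:**
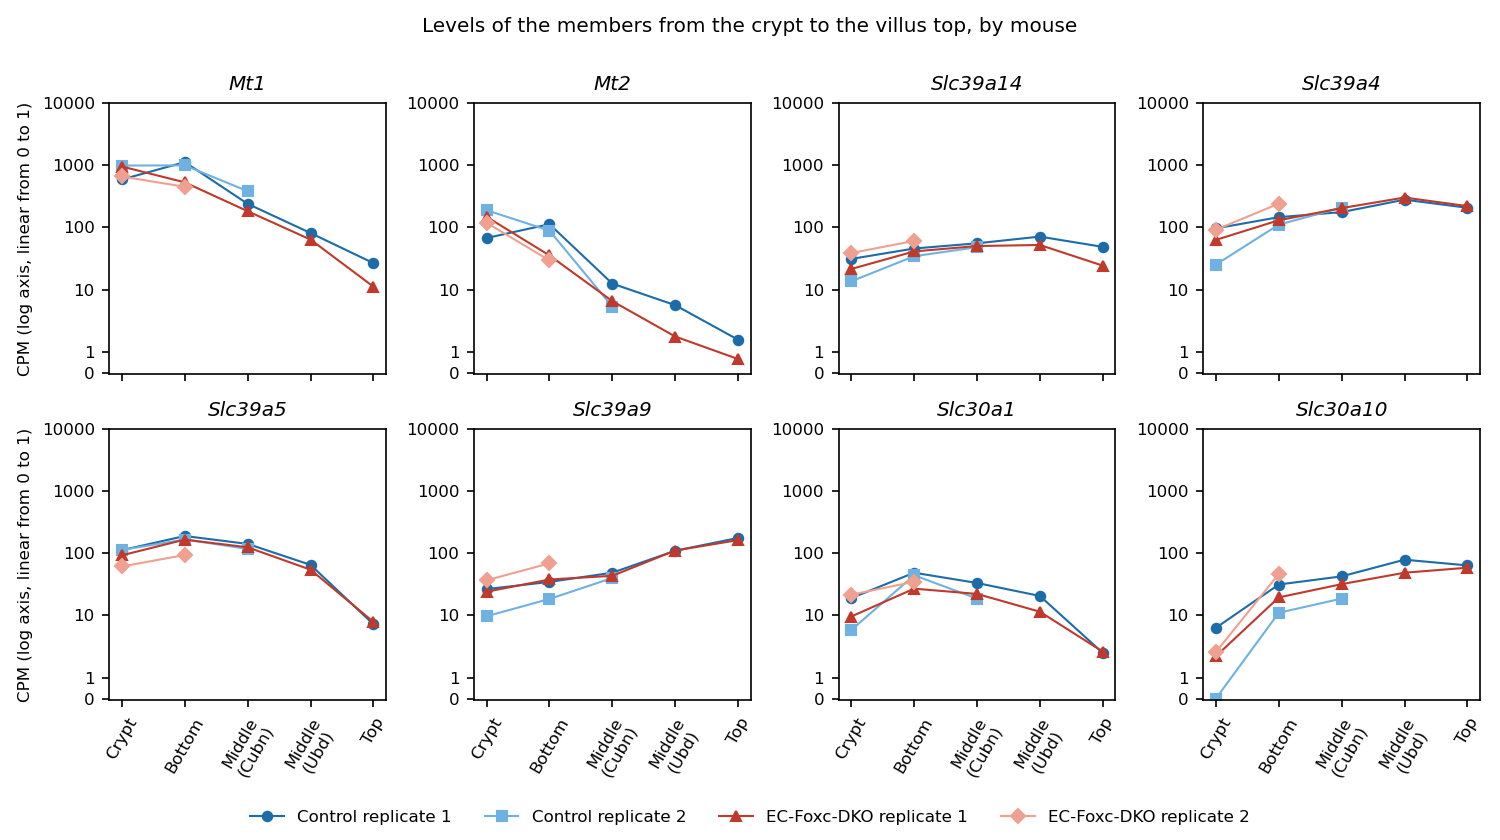
Level of each of the 8 genes (CPM, log axis that is linear from 0 to 1) in crypt cells, bottom enterocytes, the 2 middle enterocyte clusters and top enterocytes, with 1 line per mouse and a point only where the mouse had at least 10 such cells. Mt1 and Mt2 fall from the bottom to the top (Mt1 from 1116 to 26.7 CPM in Control replicate 1), Slc39a5 and Slc30a1 fall late, Slc39a9 is highest at the top, and Slc30a10 is higher at the top than at the bottom.

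The importers split along the same axis. Slc39a4, the luminal zinc importer whose loss causes the zinc deficiency disease acrodermatitis enteropathica, was at 25.3 to 96.3 CPM in crypt cells, at 176 to 208 CPM in the Cubn cluster and at 278 and 301 CPM in the Ubd cluster. Its level in top enterocytes was 206 and 219 CPM. Slc39a5, an importer of the basolateral membrane, ran the other way at the villus end, from 93.6 to 189 CPM in bottom enterocytes to 7.21 and 7.88 CPM in top enterocytes. Slc39a9, a ZIP protein of the Golgi apparatus and plasma membrane, was highest at the top with 176 and 162 CPM against 18.4 to 68.7 CPM at the bottom. Slc39a14, which carries zinc, manganese and iron, was the flattest, at 13.6 to 38.7 CPM in crypt cells, 34.4 to 60.6 CPM at the bottom and 48.6 and 24.3 CPM at the top.

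The exporters split as well. Slc30a1, the zinc exporter of the plasma membrane and itself an MTF1 target, was at 5.83 to 21.5 CPM in crypt cells, at 27.0 to 48.6 CPM in bottom enterocytes and at 2.51 and 2.63 CPM in top enterocytes. Slc30a10, which exports manganese, had 0 UMIs in the crypt cells of Control replicate 2 and up to 6.34 CPM in the other mice. It was at 11.1 to 46.4 CPM at the bottom, at 78.6 and 48.6 CPM in the Ubd cluster and at 63.7 and 58.4 CPM at the top. Slc30a1 was thus lowest in top enterocytes in both mice, whereas Slc30a10 was highest there in EC-Foxc-DKO replicate 1 and in the Ubd cluster in Control replicate 1.

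The step from crypt to bottom enterocytes was tested over all 4 mice with the mouse as a block (edgeR's quasi-likelihood test on UMI sums, Benjamini-Hochberg over 9660 genes). All 6 transporters were higher in bottom enterocytes, Slc30a10 by 4.01 ± 0.34 on the log2 scale (± SE). With 11, 0, 6 and 16 UMIs in crypt cells, Slc30a10 passed the filter on low values only through the bottom enterocytes. Its difference is therefore a description. The others were higher by 1.80 ± 0.21 (Slc30a1), 1.71 ± 0.19 (Slc39a4), 1.32 ± 0.14 (Slc39a14), 1.26 ± 0.16 (Slc39a9) and 1.23 ± 0.13 (Slc39a5). Their edgeR adjusted p-values ran from 1.47e-05 to 6.49e-05. Each transporter was higher at the bottom in every mouse. These 6 of 8 stand beside 67.9% of all genes tested that passed, so the count itself sets the members apart little.

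Mt1 and Mt2 did not pass between crypt and bottom (Mt1 0.40 ± 0.26, edgeR adjusted p = 0.199; Mt2 −0.63 ± 0.40, adjusted p = 0.183). Both were higher at the bottom in Control replicate 1 and lower there in both EC-Foxc-DKO mice. Without Control replicate 1 the difference of Mt2 was −1.26. The genotype difference in bottom enterocytes is what the pair was selected for, so this order of the mice and this value are descriptions. The scale matters for these small differences, because the fit centres the median gene at 0.07, whereas sums divided only by their totals put it at −0.49. Mt1 then stood at −0.13 and Mt2 at −1.16, and Mt2 passed. With no filter on low genes both passed, Mt1 at 0.47 and Mt2 at −0.55, and with barcodes of up to 20% mitochondrial UMIs Mt2 passed at −1.10.

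Of the 29 zinc genes 21 could be tested in this step, and 13 were higher at the bottom and 2 lower, with a list median of 0.63 against 0.07 for all genes tested. Besides the members, Slc30a2, an exporter that loads vesicles with zinc, was higher by 3.70 ± 0.21, and Mtf1 itself by 1.13 ± 0.15. Slc30a4, Slc30a5, Slc30a6, Slc30a9 and Slc39a1 were higher by 0.52 to 1.04. The 2 that were lower at the bottom were the plasma membrane importers Slc39a10 (−2.82 ± 0.35) and Slc39a8 (−1.11 ± 0.36).

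From the bottom to the top of the villus only 2 mice could be compared, 1 of each genotype, so the fit keeps 1 degree of freedom beside the spread it shares over 9179 genes, and its very small p-values come from that shared spread. The difference of Mt1 was −5.02 ± 0.20 (log2, edgeR adjusted p = 6.3e-134) and that of Mt2 −5.67 ± 0.34. They ranked 298 and 224 from the lowest of 9179 genes. With 5 and 1 UMIs in top enterocytes, Mt2 passed the filter on low values only through the bottom enterocytes, so its difference is a description. Slc39a5 (−4.17 ± 0.22) and Slc30a1 (−3.59 ± 0.33) were lower at the top too. Slc30a1 had 8 and 4 UMIs in top enterocytes, too few for the filter's total without the bottom enterocytes, so its difference is a description as well. Slc39a9 (2.67 ± 0.15), Slc30a10 (1.67 ± 0.17) and Slc39a4 (1.05 ± 0.14) were higher there, and Slc39a14 did not pass (0.21 ± 0.18, edgeR adjusted p = 0.275). The 7 members called include Mt2 and Slc30a1 and compare with 74.6% of all genes tested. With barcodes of up to 20% mitochondrial UMIs included, the difference of Slc39a4 shrank to 0.22 and was no longer called (edgeR adjusted p = 0.219).

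Of 20 zinc genes tested between top and bottom, 6 were higher and 6 lower at the top (8 of the 20 called by DESeq2), and the list median was 0.18 against −0.11 for all genes. The others called were Slc30a7 (0.91), Slc30a4 (0.78) and Slc39a1 (0.60), which were higher, and Slc39a11 (−1.02) and Slc30a5 (−0.37), which were lower. Mtf1 was at −0.15 ± 0.20 and did not pass.

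**Figure D2:**
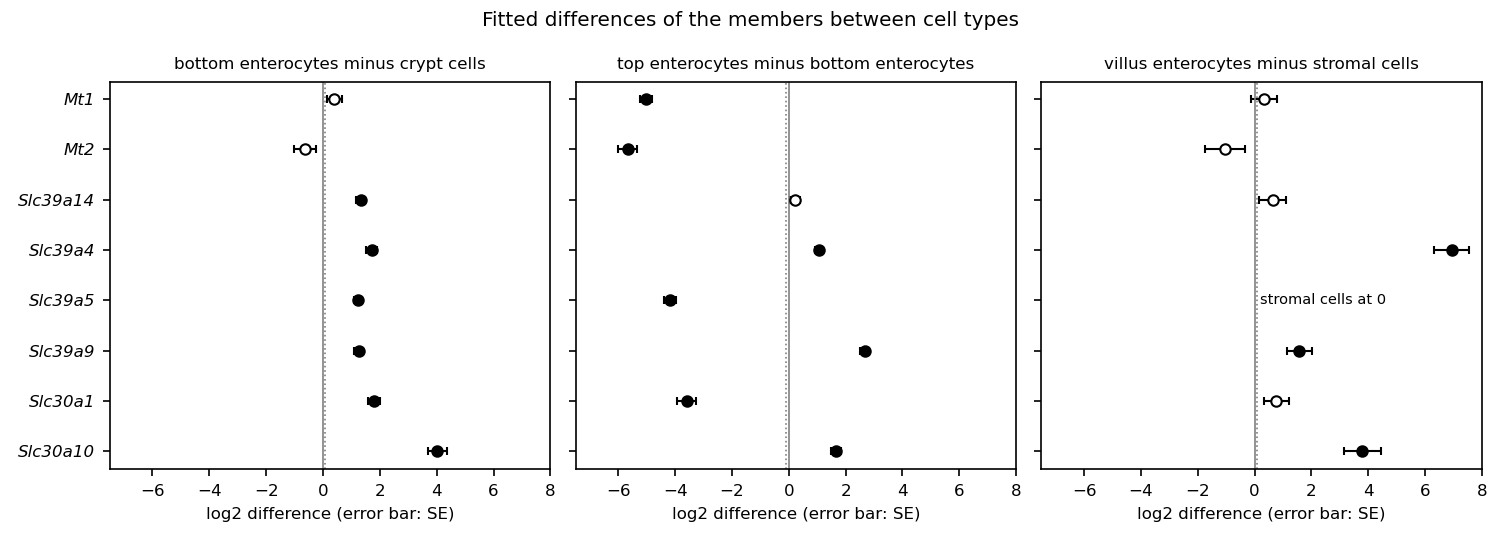
Fitted log2 difference (± SE) of the 8 genes between bottom enterocytes and crypt cells (4 mice), top and bottom enterocytes (2 mice) and villus enterocytes and stromal cells (3 mice); filled points passed an adjusted p of 0.05, the solid line is 0 and the dotted line the median of all genes. All 6 transporters lie right of the line in the first panel, Mt1 and Mt2 lie at −5.02 and −5.67 in the second, and in the third Slc39a5 has no value because stromal cells had 0 UMIs, while Slc39a4 and Slc30a10 rest on 2 and 3 stromal UMIs.

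Single cells showed the same gradient for Mt1 in the share of cells that held at least 1 UMI. In crypt cells it was 98.6% to 100% in the 4 mice, in bottom enterocytes 78.6% to 92.5%, in middle enterocytes 50.9% to 66.7% and in top enterocytes 18.6% (41 of 221 cells, exact 95% interval 13.7 to 24.3) and 12.2% (12 of 98 cells, 6.49 to 20.4). Follicular B cells, which are not known for Mt1, gave 0% to 6.5% (0 of 17 cells in 1 Control mouse, a count compatible with a share as high as 17.6%). These B cells had medians of 2753.5 to 3321 UMIs, and top enterocytes 12530 and 13134. When every cell was thinned to 1000 UMIs, the share was 32.2% to 56.6% in crypt cells, 26.9% to 48.8% in bottom enterocytes, 2.18% and 0.79% in top enterocytes and 0% to 2.57% in follicular B cells, so that top enterocytes did not stand above these B cells. These intervals and limits cover counting error only.

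Within bottom enterocytes Mt1 was spread unevenly over cells. Its median in Control replicate 1 was 6.11 UMIs per 10000 UMIs of a cell, with a 10th to 90th percentile of 0.547 to 25.8, and in EC-Foxc-DKO replicate 2 it was 2.12 with 0 to 10.3. The tenth of the cells with the highest Mt1 held 39.2% to 49.8% of the Mt1 UMIs of this type. Mt1 and Mt2 varied together over these cells (Pearson r of the log levels 0.549 to 0.77 over 26 to 346 cells of a mouse, a description, since both share each cell's depth).

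**Figure D3:**
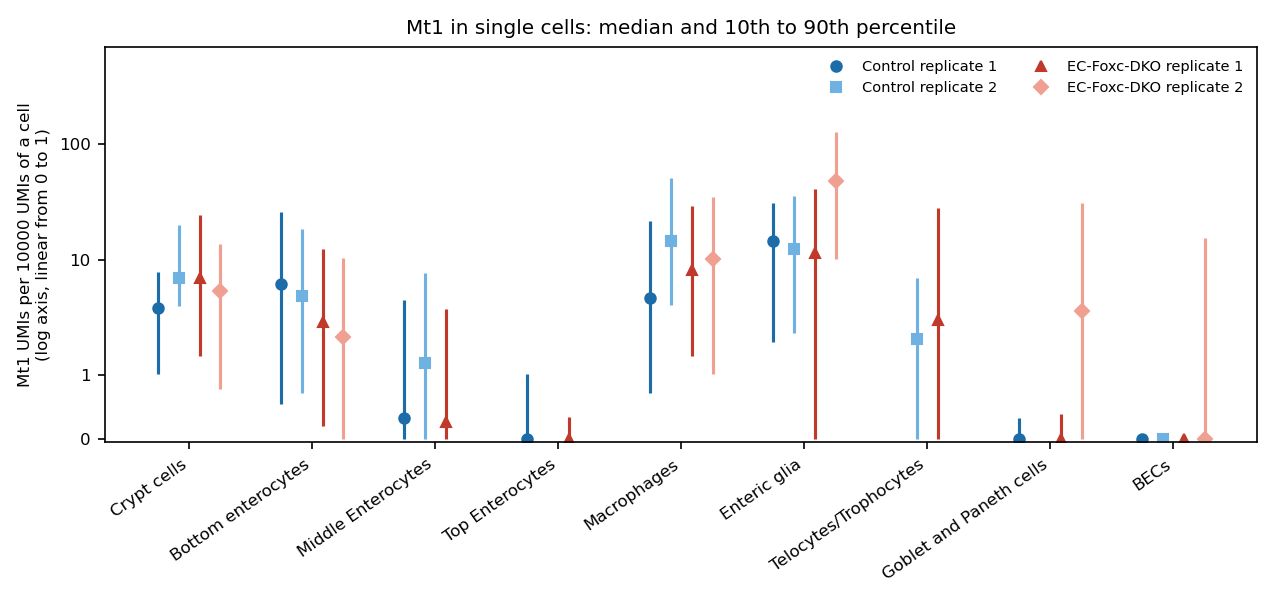
Mt1 UMIs per 10000 UMIs of a cell (log axis that is linear from 0 to 1) in 9 cell types, with the median of the cells (point) and their 10th to 90th percentile (line) for each mouse with at least 10 cells. Medians of crypt cells lie at 3.78 to 6.97, those of top enterocytes at 0, and EC-Foxc-DKO replicate 2 has the highest glial median (48.3) and the one BEC line that rises above 0.

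Over the 20 cell types that 2 or more mice held, Mt1 was highest in enteric glia, the support cells of the gut's nerve plexus, at 1937 and 1744 CPM in both Control mice and 2320 and 6362 CPM in the EC-Foxc-DKO mice. Macrophages followed with 876, 1976, 1328 and 1433 CPM. The next types by mean were telocytes and trophocytes, which are collagen-producing stromal cells (324 and 1396 CPM in 2 mice), crypt cells (794 ± 202, SD, n = 4) and bottom enterocytes (770.0 ± 332, SD, n = 4). In this order of 20 types every pair of neighbours overlapped in range, so the order is one of means only. The types at the low end, with means of 4.5 to 12.5 CPM, were follicular B cells, neutrophils and CD4+ T cells.

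Mt2 was also highest in enteric glia (769.9, 180.4, 779.7 and 2223 CPM, Control replicates 1 and 2 first). Its share of the summed Mt1 and Mt2 UMIs differed between cell types. It was 28.4%, 9.38%, 25.2% and 25.9% in glia, 10.3% to 16.1% in crypt cells, 6.16% to 9.15% in bottom enterocytes and 3.1% to 8.78% in macrophages. In each of the 4 mice the share was higher in crypt cells than in bottom enterocytes and than in macrophages, but in Control replicate 1 a single crypt cell held 63.2% of the 117 Mt2 UMIs, and that mouse's crypt share rests on this cell. The 2 genes are close paralogs, and how reads that match both were counted was not tested.

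Goblet and Paneth cells, counted as 1 type, varied between mice. Mt1 was at 461 CPM in Control replicate 1 and at 102 and 1320 CPM in the EC-Foxc-DKO mice, and 1 cell held 75.1%, 84.4% and 11.3% of those UMIs. The Paneth cell product Defa24 was at 1029.5, 2486 and 13812 CPM in the same mice and the goblet cell mucin Muc2 at 21484, 33683 and 6686 CPM, so the mouse with the most Mt1 also held the most Defa24 and the least Muc2. The part of this mixture in the Mt1 values was not tested.

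**Figure D4:**
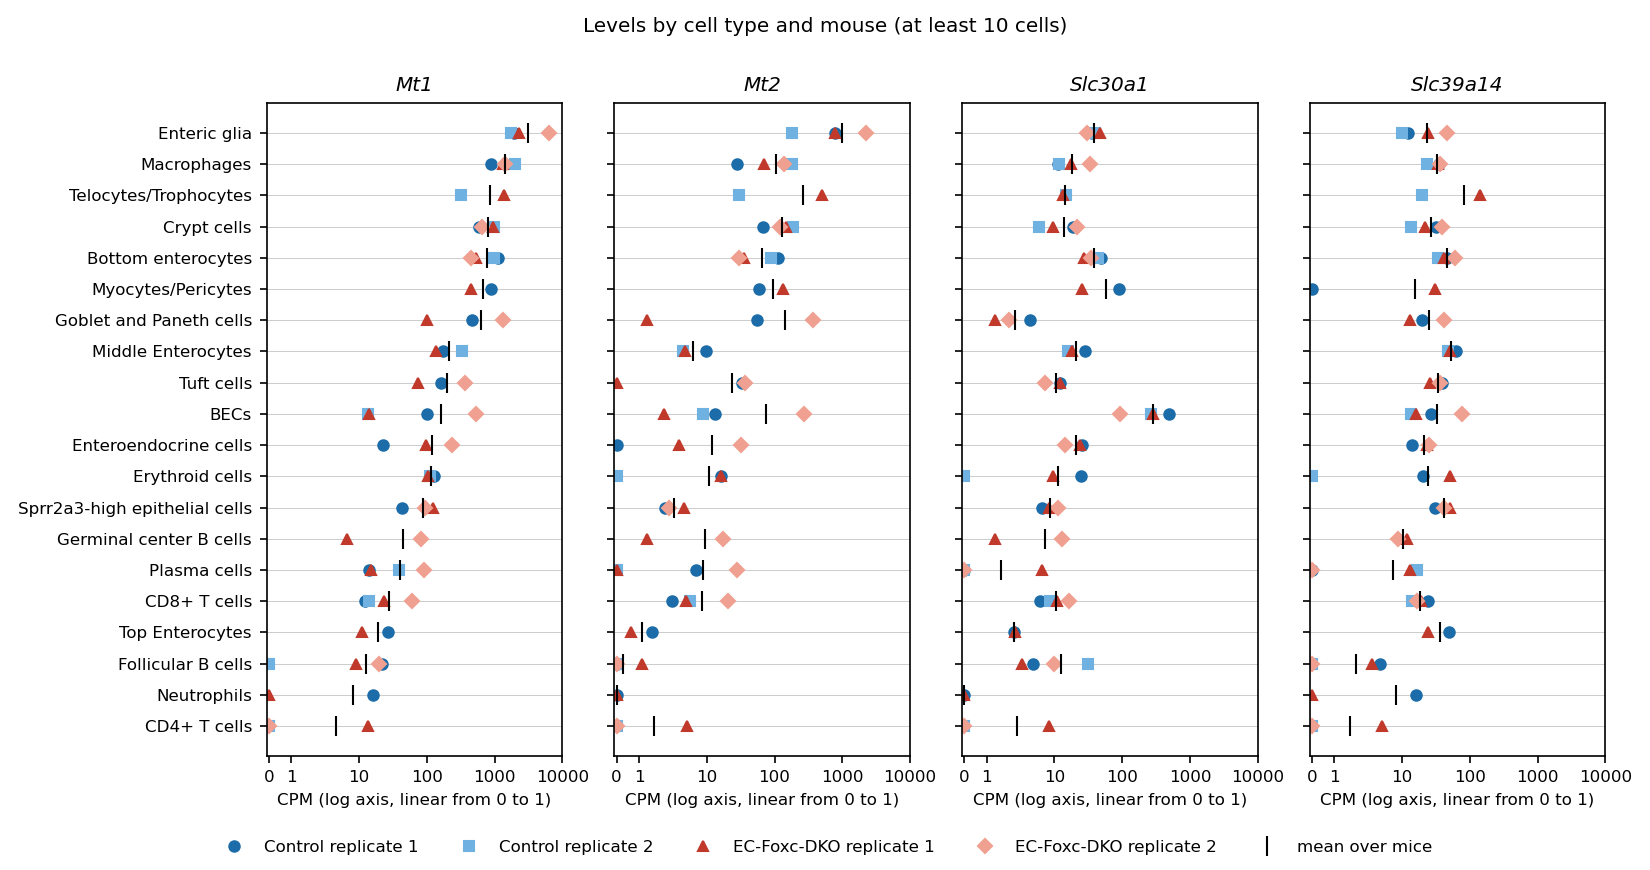
Levels of Mt1, Mt2, Slc30a1 and Slc39a14 (CPM, log axis that is linear from 0 to 1) in 20 cell types ordered by mean Mt1, 1 point per mouse with at least 10 cells and a black bar at the mean over mice. Glia lead for Mt1 and Mt2, BECs have the highest mean for Slc30a1 (93.5 to 491 CPM), and Slc39a14 has its highest point in telocytes and trophocytes (141 CPM).

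Slc30a1 stood apart in BECs, the cells in which the Cre is active. Its level there was 491 and 267 CPM in the Control mice (73 and 60 UMIs) and 281 and 93.5 CPM in the EC-Foxc-DKO mice (121 and 11 UMIs). No mouse's value overlapped those of the next type, myocytes and pericytes (25.6 and 89.7 CPM, 5 and 6 UMIs). The closest values, 93.5 and 89.7 CPM, rest on 11 and 6 UMIs and cannot be told apart on such counts. At 1000 UMIs per cell, 35.4%, 30.8% and 29.8% of BECs held a Slc30a1 UMI in the first 3 of these mice and 7.86% in EC-Foxc-DKO replicate 2, against 0.35% to 3.22% of follicular B cells. Enteric glia and bottom enterocytes followed with 38.7 ± 7.23 and 38.6 ± 9.69 CPM (SD, n = 4 each). Mt1 and Mt2 were low in the BECs of 3 mice, where 1 to 6 cells held Mt1.

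Slc39a4, Slc39a5, Slc39a9 and Slc30a10 each had their highest mean in an epithelial type. Slc39a4 had its highest means in middle enterocytes (225 ± 13.0 CPM, SD, n = 3), top enterocytes and the Sprr2a3-high epithelial cells, a cluster named for the small proline-rich protein gene Sprr2a3 (187 ± 28.4, SD, n = 3), and it was at 1.58 to 5.84 CPM in macrophages. Slc30a10 was highest in the Sprr2a3-high cells (73.0, 78.5 and 59.9 CPM) and had 0 UMIs in macrophages, glia and CD8+ T cells of all 4 mice. Slc39a9 separated top enterocytes (162 and 176 CPM) from the Sprr2a3-high cells (92.4 to 117 CPM). The next type by mean, erythroid cells, lay below these (47.4 to 80.0 CPM, on 3 to 25 UMIs per mouse). Erythroid cells of the replicate 1 mice also held 86.4 and 189 CPM of Slc39a4, and the part of RNA from other cells was not tested. Slc39a5 was highest in bottom enterocytes (153 ± 41.3, SD, n = 4). Slc39a14 had its highest single value, 141 CPM, in the telocytes and trophocytes of EC-Foxc-DKO replicate 1, against 19.9 CPM in those of Control replicate 2.

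Villus enterocytes (top, middle and bottom summed) were tested against stromal cells (telocytes and trophocytes with myocytes and pericytes) in the 3 mice with enough of both. Of 821861 stromal UMIs, 0 fell on Slc39a5, so that with the limit of 3 UMIs that a count of 0 allows its level was at least 33.5-fold higher in villus enterocytes. Slc39a4 had 2 stromal and 6750 villus UMIs, a ratio of 77.4 (exact 95% counting interval 21.4 to 639.5), and Slc30a10 had 3 and 1494, a ratio of 11.4 (3.90 to 55.5). Slc39a9 was higher in villus enterocytes by 1.57 ± 0.44 on the log2 scale (edgeR adjusted p = 0.00368), a call lost with DESeq2 (adjusted p = 0.0519), without the scaling factor and without EC-Foxc-DKO replicate 1 (log2 difference 1.12, edgeR adjusted p = 0.136). These 4 of 8 members compare with 63.5% of all genes tested, and Slc39a5, Slc39a4 and Slc30a10 passed the filter on low values only through the enterocytes.

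Mt1 (0.32 ± 0.45) and Mt2 (−1.06 ± 0.70) did not pass between enterocytes and stroma (edgeR adjusted p = 0.558 and 0.196), nor did Slc39a14 or Slc30a1. Which mouse was included decided these values. Without EC-Foxc-DKO replicate 1 the difference of Mt1 was 1.09 and that of Mt2 was 1.29. Without Control replicate 2 they were −0.40 and −2.11, and without Control replicate 1 that of Mt2 was −1.69. Leaving out a mouse shifts the weight of the genotypes. Mt1 and Mt2 were selected on their genotype difference in these same classes, so these values are descriptions. With finer clusters Mt1 (−1.34) and Mt2 (−2.91) both passed on the stromal side. Slc39a14 passed without EC-Foxc-DKO replicate 1 (2.47) and Slc30a1 without Control replicate 1 (1.33). Over the zinc list 9 of 20 genes were higher and 2 lower in villus enterocytes, with a median of 0.88, also when Slc39a5 is set to its bound, against 0.07 for all genes tested. Slc39a6 (11 villus and 18 stromal UMIs, −5.33 ± 0.66) and Slc39a13, a transporter needed by connective tissue (15 and 30 UMIs, −5.16 ± 0.56), were the 2 on the stromal side, and Mtf1, Slc30a2, Slc30a4, Slc30a5 and Slc39a11 were called on the villus side. Slc30a2 and Slc39a11 had 1 and 2 stromal UMIs and so, like 3 of the members, passed the filter on low values only through the enterocytes. Slc39a6 and Slc39a13, at 0.307 and 0.419 CPM in villus enterocytes, passed it only through the stromal cells, so their differences are descriptions too. The count over the list is therefore a description.

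The genotypes were then compared in 18 cell classes. Of 187 zinc gene tests, those of Mt1 and Mt2 in enterocytes, stroma and glia left out, none passed in edgeR's quasi-likelihood test after Benjamini-Hochberg adjustment, 5 had an unadjusted p under 0.05, and DESeq2 called 0. The members made up 63 of these tests, with the same counts of 0, 5 and 0. Some members passed the filter on low values only through the genotype in which they were high. The 18 classes overlap, since villus enterocytes include bottom and middle enterocytes and T cells include CD4+ and CD8+ T cells. The share of all genes at an unadjusted p under 0.05 is not given, so the count of 5 does not set these genes apart. The share of all genes called was 0% in 13 classes, 0.124% in CD4+ T cells, 0.191% in enteroendocrine cells, 0.856% in erythroid cells, 0.154% in middle enterocytes and 0.0861% in stromal cells. With 2 mice per group, values below are given so that their overlap can be seen, and no difference between genotypes of a transporter was established. The share of all genes whose genotypes did not overlap was not counted, so a lack of overlap does not set a gene apart.

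In bottom enterocytes, where all 4 mice had at least 26 cells, Mt1 was at 1116 and 988 CPM in both Control mice and at 527 and 448 CPM in the EC-Foxc-DKO mice. Mt2 was at 112 and 88.5 against 35.4 and 29.4 CPM. Both EC-Foxc-DKO mice lay below both Control mice for each gene, a difference of −1.08 for Mt1 and −1.62 for Mt2 on the log2 scale, and this is the difference for which the pair was selected. In middle enterocytes Mt1 stood at 176 and 334 CPM in both Control mice against 138 CPM in the EC-Foxc-DKO replicate 1 mouse, and in top enterocytes at 26.7 against 11.2 CPM. In crypt cells, which were not used to select the pair, the genotypes overlapped for Mt1 (0.02 ± 0.37, edgeR adjusted p = 1.00) and Mt2 (0.08 ± 0.49, edgeR adjusted p = 1.00).

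The transporters in bottom enterocytes gave mixed values. Slc39a9 was at 34.6 and 18.4 CPM in both Control mice and 37.8 and 68.7 CPM in the EC-Foxc-DKO mice, which did not overlap (0.94 ± 0.39, edgeR adjusted p = 0.994). Slc30a1 was at 48.6 and 44.2 against 27.0 and 34.8 CPM (−0.55 ± 0.25), and Slc39a5 at 189 and 166 against 165 and 93.6 CPM (−0.45 ± 0.27), both without overlap and both with an edgeR adjusted p of 0.994. For Slc39a5 the closest values of the genotypes were 165.9 and 165.2 CPM, which are almost the same. Slc39a4 (0.57 ± 0.34), Slc39a14 (0.35 ± 0.29) and Slc30a10 (0.50 ± 0.50) overlapped. EC-Foxc-DKO replicate 2 had the highest values of Slc39a4, Slc39a9, Slc39a14 and Slc30a10 and the lowest of Slc39a5, and without it the differences of Slc39a4, Slc39a14 and Slc30a10 turned to −0.04, −0.06 and −0.45. Without EC-Foxc-DKO replicate 1, by contrast, the differences were 1.29 (Slc39a9), 0.97 (Slc39a4), 0.92 (Slc30a10) and −0.84 (Slc39a5). That fit keeps a single EC-Foxc-DKO mouse, so these are descriptions.

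Markers of enterocyte position also differed between the mice. The summed level of 9 top-enterocyte markers in bottom enterocytes was 21625 and 13124 CPM in both Control mice and 18312 and 31596 CPM in the EC-Foxc-DKO mice, highest in the mouse with the most Slc39a9, although EC-Foxc-DKO replicate 1 had less of them and slightly more Slc39a9 than Control replicate 1. The 10 bottom-enterocyte markers summed to 63227, 63860, 66938 and 115130 CPM in the same order, and the 11 crypt markers to 2395 to 2762 CPM. The part of these markers in the differences between genotypes was not tested.

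**Figure D5:**
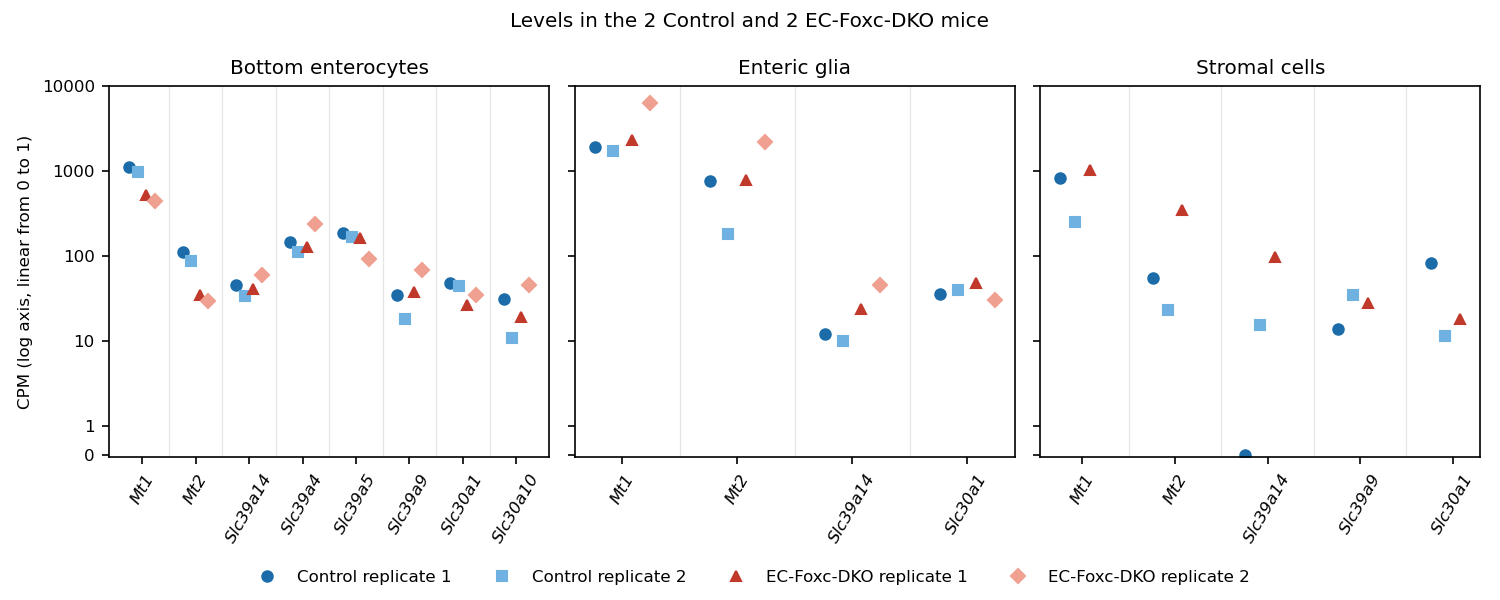
Levels (CPM, log axis that is linear from 0 to 1) in bottom enterocytes, enteric glia and stromal cells of the 2 Control and 2 EC-Foxc-DKO mice, 1 point per mouse; EC-Foxc-DKO replicate 2 had 3 stromal cells and is left out of that panel. In bottom enterocytes the EC-Foxc-DKO mice lie below the Control mice for Mt1 (527 and 448 against 1116 and 988 CPM) and in glia above them (2320 and 6362 against 1937 and 1744 CPM).

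In enteric glia the order of the genotypes was the other way round. The difference was 1.17 for Mt1 and 1.62 for Mt2 on the log2 scale, with both EC-Foxc-DKO mice above both Control mice, although for Mt2 the closest values were 769.9 and 779.7 CPM. These sums came from 17 to 39 cells per mouse, and in Control replicate 1 a single cell held 54.7% of the Mt2 UMIs. All 10 glial markers were present in each mouse at a summed 20113 to 25785 CPM. Markers of macrophages, which also hold Mt1, summed to 1861 to 4310 CPM and those of bottom enterocytes to 411 to 4520 CPM in these glia, and their part was not tested.

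Stromal cells were too few in EC-Foxc-DKO replicate 2 (3 cells), and the 3 other mice differed in what they held. Mt1 stood at 836 and 252 CPM in both Control mice and at 1019 CPM in the remaining EC-Foxc-DKO mouse, and Mt2 at 55.7, 23.3 and 353 CPM. The 60 Mt1 UMIs of Control replicate 1 came from 14 cells, 12 of them myocytes and pericytes, and 1 cell held 91.7% of them. In EC-Foxc-DKO replicate 1 the tenth of the stromal cells with the highest Mt1 held 82.9% of it. The median cell there had 1.48 Mt1 UMIs per 10000 UMIs, against 1.44 in Control replicate 2. The 11 markers of collagen-producing cells summed to 3622 and 57857 CPM in the Control mice and to 29775 CPM in EC-Foxc-DKO replicate 1, so the stromal sums are of unlike cells. The fitted differences were 1.02 for Mt1 and 3.35 for Mt2, and the latter ranged down to 1.06 with finer clusters and 1.11 without the cells of highest doublet score. Slc39a14 was at 0, 15.5 and 97.5 CPM (0, 4 and 48 UMIs), a log2 difference of 3.04. It passed the filter on low values only through the single EC-Foxc-DKO mouse, so this difference is a description.

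In T cells both EC-Foxc-DKO mice lay above both Control mice, at low levels, with 11.6 and 11.1 against 19.9 and 48.4 CPM of Mt1 (4 and 5 against 32 and 15 UMIs) and 2.90 and 4.43 against 4.97 and 16.1 CPM of Mt2, and neither gene passed the filter for the test there. CD8+ T cells gave 12.1 and 14.2 against 23.6 and 61.1 CPM of Mt1 and overlapped for Mt2. In BECs the mice were unalike. BECs of EC-Foxc-DKO replicate 2 held 62 Mt1 and 32 Mt2 UMIs (527 and 272 CPM) and those of the other 3 mice 3 to 15 Mt1 and 1 or 2 Mt2 UMIs, so that the difference of Mt1 of 2.12 ± 1.35 (edgeR adjusted p = 0.999) turned to −1.90 without that mouse. It was called without Control replicate 1 (4.08), without EC-Foxc-DKO replicate 1 (3.27) and with no filter on low genes (2.15, edgeR adjusted p = 0.00209), so a single mouse carries the value. In these BECs 5 of 8 Mt1-positive cells also held Mt2. Glial markers summed to 17.0 CPM there, markers of other types that hold Mt1 are not given, and the part of other cells was not tested. Slc30a1 in BECs was −0.90 ± 0.50 (edgeR adjusted p = 0.999), with overlapping genotypes. Mt1 was at 22.7 against 97.7 and 232 CPM in enteroendocrine cells (log2 difference 2.80). In Sprr2a3-high cells it was at 42.7 against 122 and 94.3 CPM (1.40). Each had only Control replicate 1 on the Control side. In enteroendocrine cells Mt1 passed the filter on low values only through the EC-Foxc-DKO mice (8 against 25 and 65 UMIs), so that difference is a description. In the 5 enteroendocrine cells of Control replicate 2 the level was 416 CPM, and with that mouse included the difference was −0.05. In macrophages Slc30a1 was at 11.2 and 11.7 against 17.6 and 33.3 CPM (10 and 4 against 21 and 21 UMIs). It passed the filter on low values only through the EC-Foxc-DKO mice, so its difference (1.08 ± 0.56, edgeR adjusted p = 1.00) is a description. Mt1 (−0.08 ± 0.43) and Mt2 (0.03 ± 0.75) overlapped there, and without Control replicate 2 the difference of Mt2 was 1.84.

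The genes whose levels were most like those of the members were looked up over 65 sums of a mouse and a cell type and 6470 genes (Pearson r of log2(CPM + 10), a description, since these sums share libraries). Mt2 was nearest to Mt1 (r = 0.881), and Tmem205 (0.755), Rnd3 and Deptor (0.699) were also among the 5 nearest. For Mt2 these included Deptor (0.79), Fads2 and Selenof. Slc39a4 was most like Clrn3 (0.932), Cgref1, Abcc2, Myo5b and Cxadr (0.918), and Slc39a14 most like Mcfd2 (0.742), P4hb, Ncstn, Surf4 and Kdelr2 (0.711). With the mean of each cell type subtracted, Mt2 was again nearest to Mt1 (0.805 over 63 sums). The next for Mt1 were Rpn1 (0.664), Hnrnpa1, Defa21 and Sf1, and for Mt2 Defa21 (0.651), Ran, Sec61b and Ss18l2. What remains after this subtraction includes the genotype differences on which Mt1 and Mt2 were selected, so their r is not independent of that choice. Among the members Slc39a4 and Slc30a10 had the next highest value (0.818), and Mt1 had almost none with Slc30a10 (0.004). The lists of nearest genes depend on the constant added to the CPM. With log2(CPM + 1) the 5 nearest to Slc39a14 were Ncstn, Ap1s1, Mapk3, Plcb3 and Por. With cell type means subtracted, Defa21 and Sf1 then left the list of Mt1, and Ran, Sec61b and Ss18l2 that of Mt2. Mt2 stayed nearest to Mt1 (0.866, and 0.685 after the subtraction).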

How the data were processed

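The authors deposited UMI counts per gene and barcode for 4 libraries, which the submitters' processing notes credit to Cell Ranger 4.0.0 and mm10. Barcodes over 10% mitochondrial UMIs were removed, over the mitochondrial genes listed in the authors' joined table, of which nothing else was used. Cells were scaled to 10000 UMIs and clustered without the 29 zinc genes (scanpy 1.11.5, 15 principal components, 15 neighbours, leidenalg 0.10.2 at resolution 0.5, seed 0). Clusters were named from fixed markers (at least 3 detected, 2-fold over the other cells, judged with the 10 leading genes), with the naming rule set after the clusters were seen. Doublets were kept, and 292 cells of highest doublet score were left out in an alternative.

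UMIs were summed per mouse and class with at least 10 cells and tested with edgeR 4.0.16 (R 4.3.3, filterByExpr, TMM, quasi-likelihood, Benjamini-Hochberg over all genes tested, 0.05), with the mouse as a block between cell types and no block between genotypes. DESeq2 1.42.0 was an alternative, beside other scaling, filters, limits and left-out mice. The procedure was tested on simulated data. Genes named were the 8 members, every other zinc gene called, the 5 genes most like Mt1, Mt2, Slc39a4 and Slc39a14 (log2(CPM + 10), mean of at least 20 CPM; 1 of these genes is not reported here), and up to 4 genes of lowest p in each further list. Muc2, Defa24 and the markers were named after their values were seen. The members and lists were chosen with earlier results of these data known. Promoter sequences came from RefSeq and gene positions from GENCODE vM21.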

Additional observations from a re-analysis of the deposited data

Results flagged for a closer look

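Among members passing the filter on low values in both types, Mt1, Mt2 and Slc30a1 had the genotypes in opposite order in 2 types. In each type the EC-Foxc-DKO mice lay all above or all below the Control mice. The share of all genes with such an order was not counted, so the order does not set these genes apart. For Mt1 the log2 difference (EC-Foxc-DKO minus Control) was 1.17 in enteric glia and −1.08 in bottom enterocytes, and for Mt2 it was 1.62 in enteric glia and −1.62 in bottom enterocytes. An opposite order of this kind is what the pair was selected for. For Slc30a1 it was 1.08 in macrophages and −0.55 in bottom enterocytes. In macrophages Slc30a1 passed the filter only through the EC-Foxc-DKO mice, so the value there is a description. The same kind of order, on fewer UMIs, was seen for Slc39a9, which was at 60.5 and 40.1 CPM in the BECs of the Control mice and at 20.9 and 17.0 CPM in those of the EC-Foxc-DKO mice (9, 9, 9 and 2 UMIs) but higher in EC-Foxc-DKO bottom enterocytes. For Slc39a5, lower in EC-Foxc-DKO bottom enterocytes and crypt cells, glia held 0 and 0 against 4 and 1 UMIs and macrophages 0 and 0 against 2 and 1 UMIs. The 4 glial UMIs of EC-Foxc-DKO replicate 1 came from 1 of 39 cells. Slc39a4 was higher in EC-Foxc-DKO villus enterocytes and had 4 and 2 against 3 and 1 UMIs in macrophages. The differences between the cell types in these effects were not tested, and none of the single Slc30a1 effects passed edgeR's adjusted threshold.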

How the results depend on the processing

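The count of zinc genes called between genotypes was 0, and stayed 0 with DESeq2, other scaling factors, a minimum of 3 cells, a 20% mitochondrial limit, finer clusters and high doublet scores removed. With no filter on low genes it was 2, and leaving out 1 mouse gave 0 to 8, the highest without EC-Foxc-DKO replicate 1. The labels give the libraries only a replicate number. Same-numbered mice deviated with an r of −0.326 to 0.176 over classes, which cannot show whether they were processed together. Both replicate 2 mice also gave almost no middle or top enterocytes. With the replicate block the count was 0, and with the crossed pairing, chosen after seeing the data, it was 1. The cause of these shifts was not tested.

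The counts of zinc genes called between cell types stayed within 1.5 times under every alternative run, and the top against bottom comparison could not be fitted without either replicate 1 mouse. The direction and side of the threshold were kept in 90 of 96 alternatives for bottom minus crypt, 77 of 80 for top minus bottom and 76 of 96 for villus minus stromal. Dividing by the totals alone, chosen after seeing the data, moved the median gene to −0.49, −0.54 and −0.68 in these comparisons (0.07, −0.11 and 0.07 with TMM) and turned Mt1 in bottom minus crypt to −0.13, Slc39a14 in top minus bottom to −0.22, and Mt1 and Slc39a14 in villus minus stromal to −0.47 and −0.15. The 20% mitochondrial limit turned Slc39a14 in top minus bottom to −0.15 and Mt1 in villus minus stromal to −1.34, which finer clusters also turned to −1.34. Leaving out 1 mouse gave −0.40 to 1.09 for Mt1 and −2.11 to 1.29 for Mt2 in villus minus stromal. Between genotypes it gave −0.0639 to 0.62 for Slc39a14, −0.0443 to 0.97 for Slc39a4 and −0.45 to 1.64 for Slc30a10 in bottom enterocytes, and −1.90 to 4.08 for Mt1 in BECs, each lowest without EC-Foxc-DKO replicate 2. A minimum of 3 cells turned Mt1 in enteroendocrine cells to −0.0516. With 2 mice per genotype, 15 to 38 crypt cells in 3 mice and 14 to 66 stromal cells, small differences were not detectable.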

Other observations

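Genes of 3 further lists were measured along the same axis, and their counts are descriptions beside the share of all genes called. Of 13 iron and copper genes tested, 10 were higher and 2 lower in bottom enterocytes than in crypt cells (edgeR, beside 67.9% of all genes called), among them Heph, the ferroxidase of iron export (2.51 on the log2 scale), the ferritin chains Fth1 (1.52) and Ftl1 (1.32) and the copper importer Slc31a1 (1.45). Of 10 targets of the oxidant sensor NRF2, 7 were higher at the bottom and 0 lower, a share of 70.0% near that of all genes, led by Osgin1 (1.99), Srxn1 (1.80), Gclm (1.45) and Txnrd1 (1.06). Of 11 glucocorticoid response genes 6 were higher, such as Pdk4 (4.07) and Sgk1 (3.24), and 3 lower, such as Ddit4 (−1.70). From bottom to top, where 74.6% of all genes were called, 2 of 12 iron and copper genes were higher and 7 lower (75.0% called), with the transferrin receptor Tfrc at −5.05, and of 10 NRF2 targets 3 were higher, such as Srxn1 (1.75), and 6 lower, such as Gsr (−4.65) and Prdx1 (−3.50). In that step 5 of 11 glucocorticoid genes were higher (Ddit4 2.90, Errfi1 2.27, Sgk1 2.09) and 2 lower (63.6% called), in 2 mice. Against stromal cells, where 63.5% of all genes were called, villus enterocytes were higher in 7 of 13 iron and copper genes and lower in 3, higher in 8 of 10 NRF2 targets and lower in 0, and higher in 2 of 11 glucocorticoid genes and lower in 5. These include genes seen almost on one side only, with 0 stromal UMIs of Osgin1 and 0 and 1 villus UMIs of Steap4 and Cp. Between genotypes no gene of these lists passed in edgeR in the 18 overlapping classes. In edgeR 2 of 134, 6 of 120 and 12 of 134 tests had an unadjusted p under 0.05, and DESeq2 called 0 in each list. The share of all genes at that unadjusted p is not given, so these counts do not set the lists apart.

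Barcodes left out for over 10% mitochondrial UMIs differed from those kept. Per 1000000 UMIs of other genes, Mt1 was at 250.4, 396, 112 and 458 in the removed barcodes of Control replicates 1 and 2 and EC-Foxc-DKO replicates 1 and 2, against 490.2, 931, 382 and 528 in the kept cells. Slc39a9 was at 133, 67.7, 134 and 107 in the removed barcodes and at 74.9, 24.8, 47.9 and 63.1 in the kept cells. Mt1 was thus lower and Slc39a9 higher among removed barcodes in all 4 mice, and these barcodes were not assigned to cell types.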
